A study of Mus musculus with 4 samples.

Results

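The genes described here are those of the spliceosome and of the main splicing factor families. They were chosen by gene name: the SF3A and SF3B subunits, the Prpf factors, the Snrp proteins of the small nuclear ribonucleoproteins, the SR proteins (Srsf and Sfrs), the hnRNP proteins (Hnrnp), the U2AF subunits, Cdc5l and Plrg1. The rule took 68 genes with 120 probes out of 30175 names and 39429 probes on the array. RNA came from whole livers of untreated male mice of a mixed strain, all 2 months old. The knockout group held 4 mice in which NIPP1 was removed from the liver by a conditional allele, and the control group held 4 mice whose label says only control. Neither the Cre line nor the deleted exons are given in the sources used here. Each of the 4 arrays carried 1 knockout and 1 control mouse in different dyes, so no mouse was measured again. The knockout RNA was in Cy3 on replicates 1 and 2 and in Cy5 on replicates 3 and 4.

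The spliceosome removes introns from pre-mRNA. U1 binds the 5′ splice site, U2AF and then the U2 particle with its SF3A and SF3B complexes bind the 3′ splice site region and the branch point, and the tri-snRNP and the PRPF19 complex bring about catalysis. SR and hnRNP proteins bind exons and introns and shift the choice between splice sites. NIPP1 is the product of Ppp1r8 and regulates protein phosphatase 1 in the nucleus. Its FHA domain is known to bind phosphorylated CDC5L and phosphorylated SF3B1, which places it among the spliceosome-associated proteins. The comparison asks whether the transcripts of the splicing machinery differ when NIPP1 is removed from the liver.

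All values below are log2 knockout over control of single probes, and the order of 4 values is replicates 1 to 4. Errors are standard errors of the limma fit unless SD is written, and adjusted p-values are corrected over all 20833 tested probes. The number of arrays limits the precision. In whole tissue, fewer cells of a type and less RNA per cell cannot be told apart. All positions are on the mouse build mm9. Of the 120 splicing probes, 112 (67 genes) were tested, of which 111 were well above background in all 8 mice. The other 8 probes were well above background in no mouse. They were both probes of Srsf12 and one probe each of Prpf31, Snrpc, Snrpn, Srsf10, Srsf11 and Srsf2.

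The targeted gene was checked first. The 2 probes of Ppp1r8, on chromosome 4 at 132383193 to 132383252 and at 132383814 to 132383873, were lower in knockout liver on every array. The first gave -0.60, -0.74, -0.74 and -0.63 and the second -0.66, -0.59, -0.59 and -0.75. In scanner-processed intensity the first read 56.1, 43.7, 51.0 and 53.1 in knockout mice, against 127, 120, 134 and 129 in control mice. The mean differences were -0.68 ± 0.05 and -0.65 ± 0.05, with a limma adjusted p of 0.052 for both. The scanner's processed signals have no added offset. Their log2 ratios were centred on the median of each array over all spots except the array's control spots, untested dim spots included. After this step the tested probes had medians of 0.05, -0.14, 0.17 and 0.17 on replicates 1 to 4, so they were not centred on 0. With these ratios the mean differences of the 2 Ppp1r8 probes were -1.26 and -1.15, with limma adjusted p-values of 0.029 and 0.026. All log2 ratios given below on the processed signals are centred in this way, while the printed intensities are not.

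Some libraries stood apart. All 8 hepatocyte marker genes were well above background, with summed processed signals of 849882 to 970013 in knockout and 717189 to 918657 in control mice. The 6 pancreatic acinar marker genes summed to 4359 to 75250 in knockout mice and 5325 to 14062 in control mice. Their median log2 ratios were 4.12, -3.07, -0.16 and -1.42 on replicates 1 to 4, so replicates 1 and 2 ran in opposite directions. Erythroid markers, of which 2 of 4 genes were above background in no mouse, had medians of 0.15, -0.91, -1.58 and -1.11. Of the 6 bile duct marker probes, 4 were higher on all 4 arrays, with sums of 758 to 959 in knockout and 490 to 792 in control mice. The part of these cell types in the splicing values was not tested. Across the 112 splicing probes the arrays correlated at r = 0.72 (replicates 1 and 2) and 0.65 (3 and 4) within a dye orientation. Between orientations r was -0.018 to 0.44. The points of each correlation share an array, its dyes and its mice.

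No splicing probe passed an adjusted p of 0.05. Across all tested probes 39 did in limma (0.187%). A trended and robust variance called 8 splicing probes (7.14%, against 3.67% of all tested probes). Fitting the 2 channels separately called 28 (25%, against 17.6%). At a limma adjusted p under 0.1 there were 11 splicing probes of 112, or 9.82%, against 6.73% of all tested probes. Of these, 7 were higher in knockout liver (Prpf4b, Hnrnph3, Hnrnpa1, Snrpa1 with 2 probes, Sfrs18 and Srsf1) and 4 were lower (Sf3b1, Prpf40b, Hnrnpa3 and Hnrnpul2). None of the 11 kept an adjusted p under 0.1 when any of the 4 arrays was left out. The lowest limma adjusted p of any tested probe was then 0.072, 0.0995, 0.22 and 0.12 without replicates 1 to 4 in turn. Without replicate 3 or 4, no probe on the array could thus pass. Only 1 of the 11 (Prpf4b) kept an adjusted p under 0.1 without the dye term. At an unadjusted limma p under 0.05, 17 splicing probes were higher (15.2%, against 12.9% of all tested probes) and 17 were lower (15.2%, against 10.3%). Under median centring in place of loess that split was 23 higher and 10 lower, and on the processed signals 16 and 10. On all 4 arrays 21 splicing probes were higher in knockout (18.8%, against 13.4%) and 17 were lower (15.2%, against 11.1%).

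The differences were small. The mean log2 ratio of the 112 probes ran from -0.38 to 0.51, with a median of -0.011, against -7.01e-05 for all tested probes. The lower and upper quartiles of the splicing probes were -0.10 and 0.079. The median size without regard to sign was 0.099 for splicing probes and 0.093 for all tested probes. One splicing probe (0.89%) differed by more than 0.5 on the log2 scale, against 781 of all tested probes (3.7%). With median centring the median was 0.044 for splicing probes and 0.029 for all probes, and on the processed signals 0.047 and 0.057, so the sign of the median turned with the scaling. The added offset of 50 draws the ratios of dim probes toward 0 by its construction. On the processed signals 20 of the 112 splicing probes, all with means between -0.064 and 0, averaged above 0 instead. Those ratios were also centred, and the array medians taken off were -0.05, 0.14, -0.18 and -0.18. These were medians of all spots except the array's control spots, and the tested probes were left with medians of 0.05, -0.14, 0.17 and 0.17. The part of the centring in these changes of sign was not tested.

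**Figure D1:**
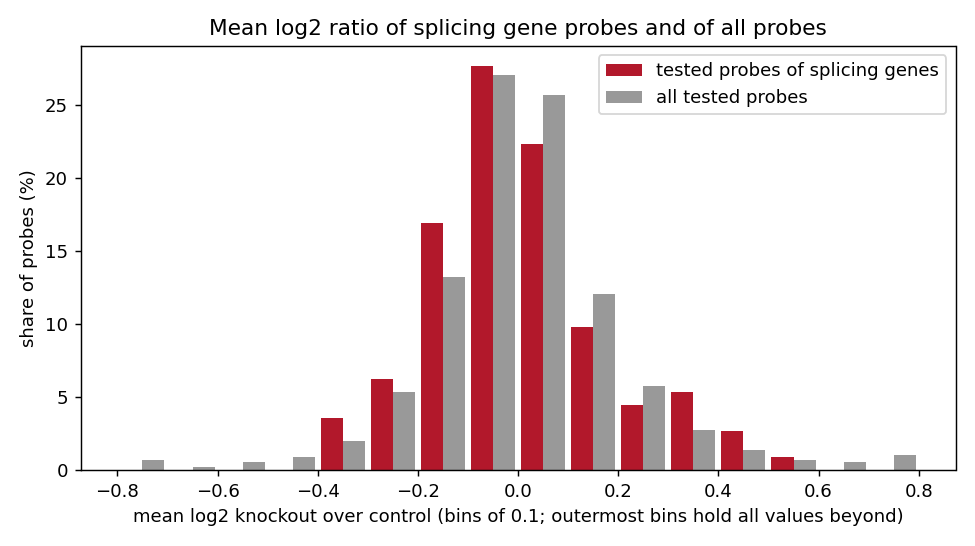
Share of probes (%, vertical axis) by mean log2 knockout over control (horizontal axis, bins of 0.1, the outermost bins holding all values beyond), for the 112 tested splicing probes (red) and all 20833 tested probes (grey). Both sets centre near 0, and the splicing probes run from -0.38 to 0.51.

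SF3A and SF3B make up the part of the U2 particle that holds the branch point. Of their 11 tested probes (8 genes), 9 had a mean below 0, against 50% of all tested probes, and the group median was -0.082. Its medians on the 4 arrays were 0.068, -0.096, -0.12 and -0.20. The group median was -0.024 on the processed signals, against 0.057 for all tested probes, and -0.023 with median centring, against 0.029. On the processed signals Sf3a3 (0.046), the upstream Sf3b4 probe (0.0094) and the downstream Sf3b5 probe (0.0041) averaged above 0 instead. At an unadjusted limma p under 0.05, 3 probes were lower (Sf3b1, Sf3b2 and 1 of 2 for Sf3b4) and none was higher. Among all tested probes 10.3% were lower and 12.9% higher at that p. Sf3b1 encodes the largest SF3B subunit, a protein that NIPP1 binds. Its single probe lies on the minus strand of chromosome 1 at 55042223 to 55042282. It begins with these 30 of 60 bases, printed because this gene had the lowest p of the group.
Sf3b1: acacttctcaactaagaccttttctttagc
Its processed intensity was 114, 96.4, 88.8 and 104 in knockout mice, against 144, 140, 137 and 141 in control mice. The knockout values all lay below the control values. How many of all tested probes separate the groups in this way was not counted. The log2 ratios were -0.27, -0.37, -0.39 and -0.28, a mean of -0.33 ± 0.05, or 0.80 of control, with a limma adjusted p of 0.071.

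The other SF3 subunits varied more between arrays. For Sf3b4, which encodes the SF3B subunit with RNA-recognition motifs, the probe nearer the 3′ end gave -0.18, -0.16, -0.19 and -0.35 (mean -0.22, limma adjusted p = 0.12). On the processed signals this dim probe gave -0.30, -0.77, -0.51 and -0.80 (mean -0.59, limma adjusted p = 0.091). Its second probe, 237 bases upstream, gave 0.14, -0.096, -0.021 and -0.20 (mean -0.044). The 2 probes thus differed on replicate 1 in sign. The Sf3b2 probe gave 0.040, -0.033, -0.34 and -0.31 (mean -0.16, limma adjusted p = 0.15), near 0 in one dye orientation and below it in the other. Both Sf3b3 probes (means -0.15 and -0.082) and both Sf3b5 probes (-0.10 and -0.064) had means below 0, each with at least 1 array above 0. Of the SF3A genes, Sf3a2 was higher on all 4 arrays, at 0.063, 0.042, 0.22 and 0.12 (mean 0.11, limma adjusted p = 0.27). Sf3a1 averaged 0.018 and Sf3a3 -0.011.

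U2AF recognises the polypyrimidine tract and the AG of the 3′ splice site. None of its 6 tested probes had one sign on all 4 arrays, and none reached an unadjusted limma p of 0.05. The 2 probes of U2af1, which encodes the small subunit, averaged -0.023 and -0.042, and 0.022 each on the processed signals. The 2 probes of U2af2, the large subunit gene, averaged -0.10 and -0.069. On replicate 1 all 4 of these probes were above 0 (0.15 to 0.30), and on replicate 4 all 4 were below 0 (-0.28 to -0.15). The 2 probes of U2af1l4, a gene related to the small subunit, averaged -0.0038 and 0.076.

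The Snrp genes encode proteins of the U1, U2, U4 and U5 particles. Of 19 tested probes, 5 from 3 genes (Snrpa1, Snrpn and Snrpa) were higher at an unadjusted limma p under 0.05 and none was lower. The shares among all tested probes were 12.9% and 10.3%, and 2 of the 5 are overlapping probes of Snrpa1. Snrpa1 encodes a core protein of the U2 particle. Its 2 probes lie on the plus strand of chromosome 7 at 73219407 to 73219466 and 73219414 to 73219473. They overlap by 53 bases, so they are not separate evidence. The first 30 bases of each are printed to show the shared stretch.
Snrpa1 upstream: aaccttgaaataacaatgccagttttctac
Snrpa1 downstream: aaataacaatgccagttttctacaaatggt
The upstream probe read 2138, 1631, 2036 and 1638 in knockout mice, against 1332, 1081, 1305 and 1455 in control mice. Its log2 ratios were 0.67, 0.58, 0.62 and 0.17. The mean was 0.51 ± 0.09, or 1.42 times control, with a limma adjusted p of 0.081. It was the largest mean difference among the 112 splicing probes, and replicate 4 lay well below the other arrays. The downstream probe gave 0.54, 0.54, 0.67 and 0.23 (mean 0.50, limma adjusted p = 0.082).

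Snrpn encodes SmN, a relative of SmB that is imprinted and best known from brain. Its 2 tested probes lie 7963 bases apart on the minus strand of chromosome 7, at 67140293 to 67140352 and 67132330 to 67132389. Both are shown because they do not overlap, though they read the RNA of the same mice on the same arrays.
Snrpn upstream: acaccaagaggtggttaaagcagtattgca
Snrpn downstream: caagatgggagaatcttcattggcaccttc
The upstream probe gave 0.62, 0.28, 0.49 and 0.21 (mean 0.40 ± 0.09, limma adjusted p = 0.11). The downstream probe gave 0.83, 0.38, 0.37 and 0.21 (mean 0.45 ± 0.09, limma adjusted p = 0.10). Both were above 0 on every array, most so on replicate 1. A further probe of Snrpn was not above background in any mouse. Snrpa, which encodes a core protein of the U1 particle, gave 0.36, 0.051, 0.91 and 0.22 (mean 0.38 ± 0.14, limma adjusted p = 0.20), and replicate 3 was the highest by a wide margin.

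The genes of the common Sm core showed another pattern. The Snrpb probe gave 0.32, 0.25, -0.15 and -0.16, and the Snrpd3 probe gave 0.093, 0.042, -0.24 and -0.30. All 3 Snrpd2 probes had the same order of signs, with means of -0.052 to -0.013. These 5 probes were above 0 where the knockout RNA carried Cy3 and below 0 where it carried Cy5. Since each orientation held its own mice, dye and mice cannot be told apart. Snrpd1, Snrpf and Snrpg were above 0 on replicate 1 and below 0 on the others, with means of -0.20 to -0.011. Both Snrpe probes averaged above 0, at 0.063 and 0.077. In all, 22 splicing probes (19.6%) had one sign in each orientation, against 23.7% of all tested probes.

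**Figure D2:**
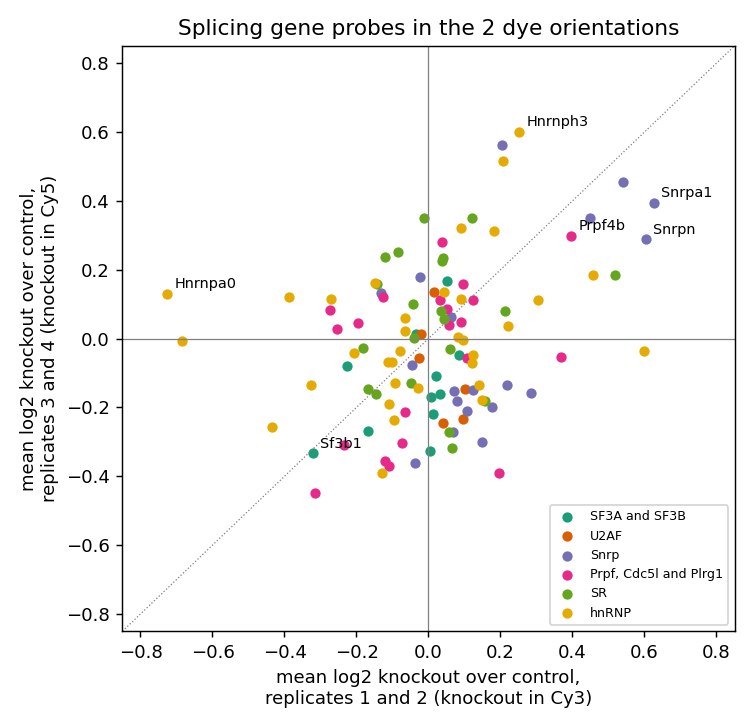
Mean log2 knockout over control of replicates 3 and 4 (vertical axis) against that of replicates 1 and 2 (horizontal axis) for the 112 tested splicing probes, coloured by family, with the dotted line at equal values. Of the probes, 33 were above 0 in both orientations and 28 below 0 in both, counts that were not made for all tested probes. One Hnrnpa0 probe lies far below 0 in replicates 1 and 2 only.

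Prpf factors, with Cdc5l and Plrg1, serve the tri-snRNP, the PRPF19 complex and the catalytic steps. Of 21 tested probes, 3 were higher and 5 were lower at an unadjusted limma p under 0.05, against 12.9% and 10.3% of all tested probes. Their median was -0.0016. Cdc5l encodes the PRPF19 complex protein that NIPP1 binds. Its 2 probes lie 15973 bases apart on the minus strand of chromosome 17, at 45544806 to 45544865 and 45528833 to 45528892. They are shown because Cdc5l is, with Sf3b1, the direct link of NIPP1 to this machinery.
Cdc5l upstream: ctacgaaccatctggaaataaaaaaggaaa
Cdc5l downstream: cctgactttaaatactgcctgtgagtaaac
The upstream probe gave 0.091, 0.16, 0.10 and 0.12, all above 0 (mean 0.12 ± 0.05, limma adjusted p = 0.23). On the processed signals, after centring by array, this dim probe gave 0.47, 0.37, 0.32 and 0.29 (mean 0.36, limma adjusted p = 0.11). Before centring it read 65.8, 59.5, 64.2 and 65.8 in knockout mice, against 49.3, 41.8, 58.1 and 61.4 in control mice. The downstream probe gave -0.048, 0.12, 0.29 and 0.28 (mean 0.16, limma adjusted p = 0.19). Neither probe passed the threshold. Plrg1, which encodes a WD40 partner of CDC5L, averaged 0.070 and 0.069 at 2 probes 115 bases apart, with at least 1 array below 0 each. Prpf19, the ubiquitin ligase gene of that complex, gave 0.43, 0.31, -0.044 and -0.064 (mean 0.16, limma adjusted p = 0.17), so it was above 0 in one orientation only. Its one probe is printed in 10 spots on each array, whose average this is.

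Prpf4b and Prpf40b had the lowest p-values of the family. Prpf4b encodes a kinase that phosphorylates proteins of the tri-snRNP. Its 2 probes lie 2948 bases apart on the plus strand of chromosome 13, at 34991032 to 34991091 and 34993980 to 34994039. They are shown because they gave different answers.
Prpf4b upstream: gttgcagataatgacattacgccttatctt
Prpf4b downstream: acaacattcagtacactgaaggtaagctaa
The upstream probe gave 0.43, 0.36, 0.33 and 0.26 (mean 0.35 ± 0.05, or 1.27 times control, limma adjusted p = 0.062). With every probe tested and no filter on dim ones, its limma adjusted p was 0.047, and on the processed signals its mean was 0.54. The downstream probe gave -0.27, -0.28, -0.078 and 0.25 (mean -0.096, limma adjusted p = 0.48).

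Prpf40b encodes a WW-domain protein that associates with the U1 particle. Its upstream probe gave -0.21, -0.42, -0.39 and -0.51 (mean -0.38 ± 0.06, or 0.77 of control, limma adjusted p = 0.073). Its other probe gave -0.14, -0.33, -0.22 and -0.40 (mean -0.27, limma adjusted p = 0.11). Both were below 0 on every array. Prpf18, a factor of the second catalytic step, gave -0.19, -0.056, -0.48 and -0.23 (mean -0.24, limma adjusted p = 0.14). Both Prpf38b probes were below 0 on all 4 arrays, with means of -0.19 and -0.14. Prpf8, the gene of the large U5 protein at the catalytic core, gave -0.27, -0.23, -0.14 and 0.20 (mean -0.11, limma adjusted p = 0.42), and averaged -0.019 on the processed signals. Prpf6, a bridging protein of the tri-snRNP, gave 0.38 on replicate 1 and -0.43 on replicate 4.

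SR proteins bind exonic enhancers and recruit U1 and U2AF. Of 21 tested probes (11 genes), 3 were higher and 2 were lower at an unadjusted limma p under 0.05. Those counts can be read against 12.9% and 10.3% of all tested probes. The median of the 21 was 0.029. Srsf1, the founding family member, has 3 tested probes on the plus strand of chromosome 11. The first, at 87864550 to 87864609, gave 0.67, 0.36, 0.20 and 0.17 (mean 0.35 ± 0.07, limma adjusted p = 0.095). The others, 2467 and 2549 bases downstream, averaged 0.0083 and 0.029 and had arrays on both sides of 0. Sfrs18, now named Pnisr, encodes an SR-related nuclear protein. Its downstream probe gave 0.14, 0.10, 0.34 and 0.37 (mean 0.24, limma adjusted p = 0.093), while the upstream one averaged 0.050. Srsf6 had one probe above 0 on every array (mean 0.13, limma adjusted p = 0.19) and one with an average of -0.012. Both tested Srsf11 probes were below 0 on every array (means -0.15 and -0.16, limma adjusted p = 0.21 each). The 3 Srsf3 probes averaged 0.15, 0.057 and -0.089 from the 5′ to the 3′ end, and none passed an unadjusted limma p of 0.05.

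The hnRNP family was the largest, with 34 tested probes of 18 genes. At an unadjusted limma p under 0.05, 6 probes were higher and 7 were lower, against 12.9% and 10.3% of all tested probes. The family median was -0.0085. Hnrnph3 encodes a member of the hnRNP H and F subfamily, which binds G-rich RNA. Its 2 probes lie 3224 bases apart on the minus strand of chromosome 10, at 62480669 to 62480728 and 62477445 to 62477504. They are printed because one had the lowest p of the family and the other pointed the opposite way.
Hnrnph3 upstream: tcaagaaatacagaaatggcagtaattcca
Hnrnph3 downstream: ggatcaaaatgaacctgtcagtgtgatctc
The upstream probe gave 0.14, 0.36, 0.58 and 0.62 (mean 0.43 ± 0.06, or 1.34 times control, limma adjusted p = 0.062). It passed the threshold on the processed signals (0.63, limma adjusted p = 0.044) and with no filter on dim probes (limma adjusted p = 0.049). The downstream probe gave -0.17, -0.014, -0.044 and -0.21 (mean -0.11, limma adjusted p = 0.34), and averaged -0.29 on the processed signals.

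Hnrnpa1 encodes an abundant repressor of exon inclusion. Its downstream probe, on chromosome 15 at 103075181 to 103075240, gave 0.17, 0.25, 0.59 and 0.45 (mean 0.36 ± 0.05, limma adjusted p = 0.065). Its upstream probe, at 103072642 to 103072701, gave 0.084, 0.0018, 0.039 and 0.23 (mean 0.089, limma adjusted p = 0.41). Hnrnpc, which encodes a protein that binds uridine tracts, gave 0.64, 0.27, 0.27 and 0.099 (mean 0.32, limma adjusted p = 0.13) at one probe and an average of 0.28 at the other. Hnrnpul2, a gene related to Hnrnpu, gave -0.17, -0.092, -0.33 and -0.45 (mean -0.26 ± 0.05, limma adjusted p = 0.094). Hnrnpul1 had one probe below 0 on every array (mean -0.23, limma adjusted p = 0.13) and one with an average of -0.0020. Hnrnpl, a CA-repeat binder, gave -0.086, -0.13, -0.16 and -0.22 (mean -0.15, limma adjusted p = 0.17). One Hnrnpa0 probe gave -0.75, -0.70, -0.019 and 0.28, a mean of -0.30 that rested on replicates 1 and 2.

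**Figure D3:**
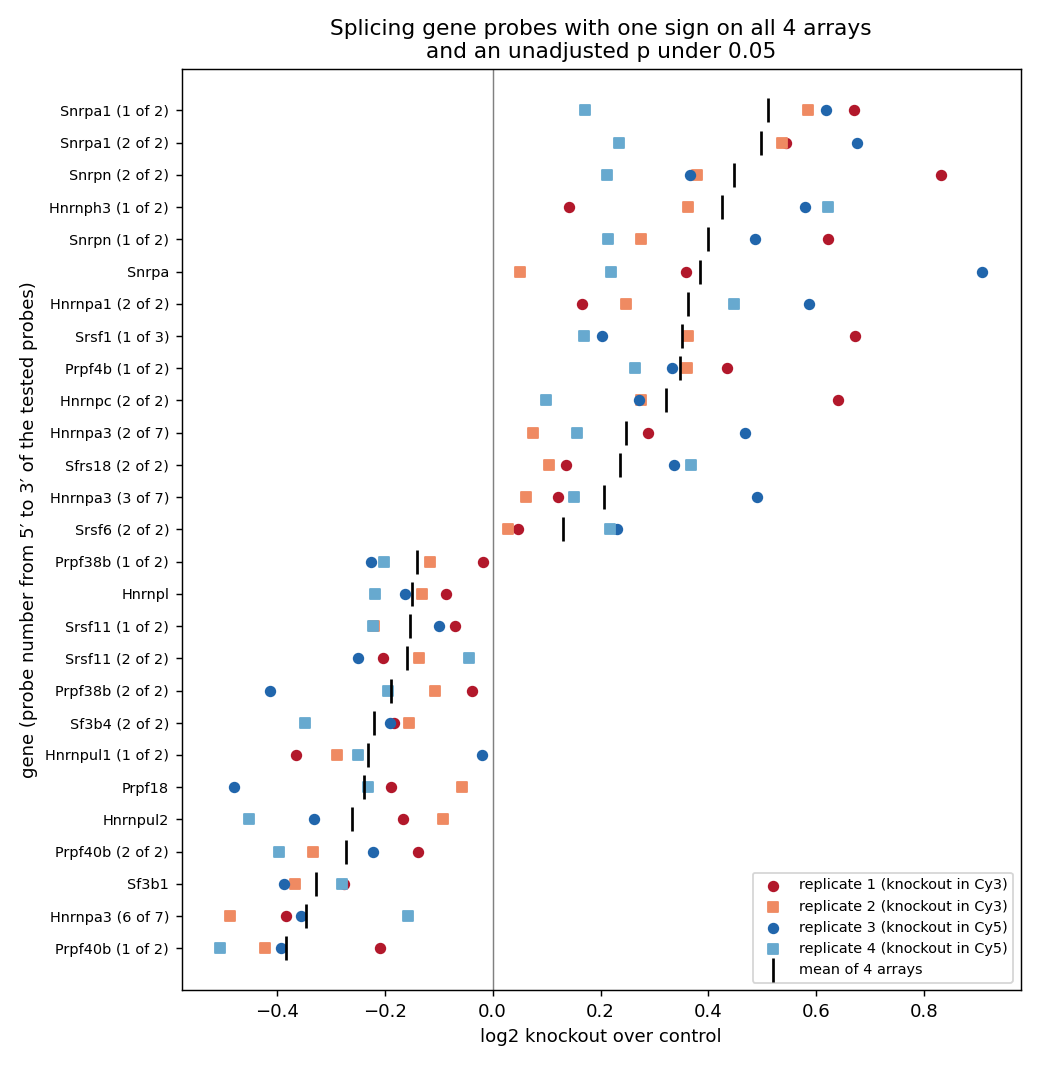
Log2 knockout over control (horizontal axis) on each of the 4 arrays for the 27 splicing probes that had one sign on all arrays and an unadjusted limma p under 0.05, 14 of them higher and 13 lower in knockout liver. Points are single arrays, black bars are means, and brackets give the probe's number from 5′ to 3′ among the tested probes of its gene. An unadjusted limma p under 0.05 held for 30.4% of splicing probes and 23.2% of all tested probes. One sign on all arrays held for 33.9% and 24.5%. The share of all tested probes that met both conditions was not counted.

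Hnrnpa3 was the only splicing gene with tested probes of opposite sign that each had an unadjusted limma p under 0.05. That is 1 of 36 splicing genes with several probes (2.78%), against 60 of 3712 genes on the array (1.62%). It encodes an hnRNP A/B protein, and 7 probes cover it on the plus strand of chromosome 2, between 75500576 and 75507426. The first 30 bases of each are given in order from 5′ to 3′, since the values differed along the gene.
Hnrnpa3 1: tgtgaagtgaaaaaggccctttctaaacaa
Hnrnpa3 2: ataatggatttggaggtgatattggcaact
Hnrnpa3 3: agtgtcaattagatgtacattcctgaggtc
Hnrnpa3 4: aacacccactgacttgcaatttaaggggaa
Hnrnpa3 5: ggcgctgacatgtggagagaatagatattt
Hnrnpa3 6: ccccaaatatctgaactcaaattcggaatg
Hnrnpa3 7: gacagcagaggtggtctgtaattcaattgt
The positions of probes 1 and 2 span 75500576 to 75500719 and 75500962 to 75501666. These spans are longer than their 60 bases, so each probe skips a stretch of genomic sequence between its ends. The first 3 probes averaged 0.21, 0.25 and 0.21, probes 4 and 5 averaged -0.086 and -0.090, and probes 6 and 7 averaged -0.35 each. Probe 1 gave 0.35, 0.26, 0.25 and -0.023. Probe 6, which lies 4116 bases downstream, gave -0.38, -0.49, -0.36 and -0.16 (limma adjusted p = 0.077). Probe 6 was below probe 1 on all 4 arrays. Probe 7 gave -0.86, -0.51, -0.19 and 0.17, and was the lowest of the 7 probes on replicates 1 and 2 but not on 3 and 4. In processed intensity probe 6 read 313, 261, 282 and 333 in knockout mice, against 428, 385, 404 and 400 in control mice.

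**Figure D4:**
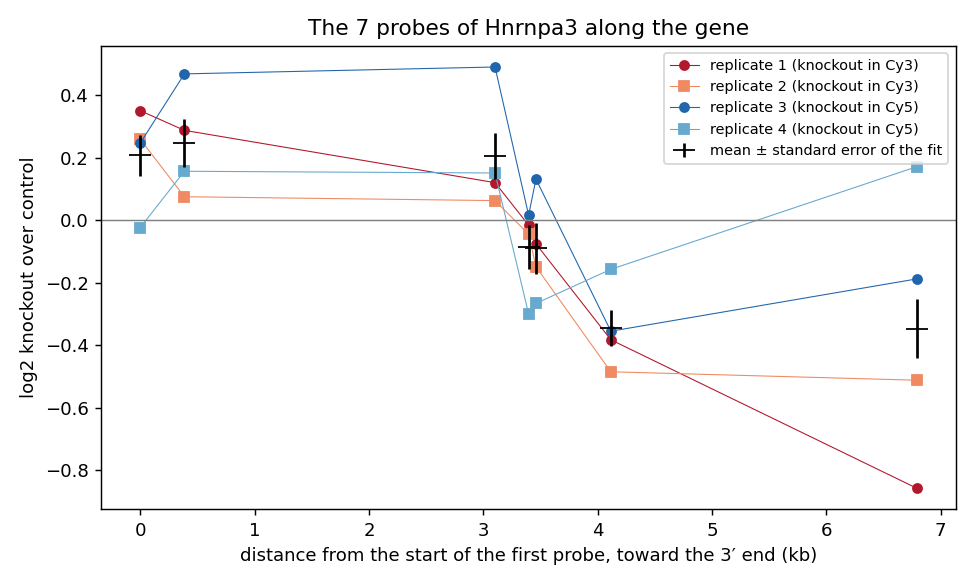
Log2 knockout over control (vertical axis) of the 7 Hnrnpa3 probes by distance from the first probe's start (kb, horizontal axis), with one line per array and black marks for the mean and standard error of the fit. Means of the 3 upstream probes lie at 0.21 to 0.25, and those of probes 6 and 7 at -0.35.

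Probes of one gene also differed elsewhere on the array. Of 36 splicing genes with several tested probes, 27 (75%) had one sign at all of them, against 69.2% of 3712 genes on the array. The median range between a gene's probes was 0.084 and 0.082. For 35 splicing genes the probe nearest the 3′ end could be set against the one nearest the 5′ end. The 3′ probe was lower in 20 (57.1%), against 61.2% of 3449 genes. The drop from the 5′ to the 3′ end was largest for Hnrnpa3 (-0.56), Hnrnph3 (-0.54), Prpf4b (-0.44) and Srsf1 (-0.32), and the largest step the other way was in Hnrnpa1 (0.27). The 5th and 95th percentiles of this difference over all genes were -0.38 and 0.21.

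The same measure moved with the array. Its median over the 3449 genes was -0.10, -0.053, -0.0043 and 0.017 on replicates 1 to 4. For Hnrnpa3 it was -1.21, -0.77, -0.44 and 0.19, for Prpf4b -0.71, -0.64, -0.41 and -0.019, and for Srsf1 -0.69, -0.43, -0.083 and -0.084. In these 3 genes the 2 largest drops were on replicates 1 and 2. For Hnrnph3 it was -0.31, -0.38, -0.62 and -0.84, largest on replicates 3 and 4. The part of RNA integrity in these differences was not tested.

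Other genes of the splicing pathway were taken from fixed lists of 167 names, of which 162 genes with 249 probes were tested. None of their probes passed an adjusted p of 0.05. At an unadjusted limma p under 0.05, 25 were higher and 29 were lower, shares that can be read against 12.9% and 10.3% of all tested probes. Among genes of snRNP assembly and other snRNP proteins, 11 of 73 probes were higher and 7 were lower. Rnpc3, which encodes a protein of the minor U11/U12 particle, gave 0.34, 0.62, 0.64 and 0.62 (mean 0.56 ± 0.06, limma adjusted p = 0.056). On the processed signals it passed, with 0.76 and a limma adjusted p of 0.038. Luc7l3, a U1-associated factor, averaged 0.37 (limma adjusted p = 0.061), while a probe of the related Luc7l2 gave -0.23, -0.47, -0.48 and -0.45 (limma adjusted p = 0.068). Each of these probes kept one sign on every array. Ppih, a cyclophilin of the tri-snRNP, averaged -0.28 (limma adjusted p = 0.076).

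The regulators of alternative splicing outside the SR and hnRNP families had 11 of 88 probes higher and 10 lower, against 12.9% and 10.3% overall. Rbfox2, which binds UGCAUG motifs, gave 0.063, 0.16, 0.77 and 0.74 (mean 0.43 ± 0.05, limma adjusted p = 0.056), with most of the difference on replicates 3 and 4. On the processed signals its limma adjusted p was 0.049. Without the dye term its error was 0.15 and its limma adjusted p 0.25. Syncrip gave -0.62, -0.53, -0.17 and -0.11 (mean -0.36, limma adjusted p = 0.061), with most of it on replicates 1 and 2. Its error was 0.11 and its limma adjusted p 0.21 without the dye term. Tial1, which binds U-rich introns next to 5′ splice sites, gave -0.67, -0.30, -0.38 and -0.74 (mean -0.52, limma adjusted p = 0.090). Rbm25 averaged 0.35 (limma adjusted p = 0.061) and was above 0 on every array.

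Among the helicases and other proteins of the catalytic steps, 2 of 51 probes were higher and 6 were lower. Here too the shares among all tested probes were 12.9% and 10.3%. Ddx42, a helicase that associates with SF3B, averaged -0.35 (limma adjusted p = 0.069) and was below 0 on every array. A probe of Ddx5 averaged -0.28 (limma adjusted p = 0.093), and one of its relative Ddx17 averaged 0.31 (limma adjusted p = 0.12). Kinases and phosphatases of splicing factors, a list that holds Ppp1r8 itself, had 1 of 18 probes higher and 5 lower, 2 of the 5 being those of Ppp1r8. Factors of 3′ splice site recognition had none of 13 higher and 1 lower, and the exon junction complex had none of 8 in either direction.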

How the data were processed

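Total liver RNA (100 ng per mouse) of 4 knockout and 4 control mice was hybridised to 4 two-colour arrays on 1 slide in 1 scan. Per the file headers, Agilent Feature Extraction 10.7.3.1 made the deposited intensities (mean signal, local background, processed signal) and log10 ratios, and the log10 ratios were not used. The authors' deposited series values are log2 and matched knockout over control of the processed signals, so scale, centring and direction are known. They were used only for that check, and their column medians were -0.05, 0.14, -0.18 and -0.18. The alternative on the processed signals had no normexp and no loess. It took the median of each array, over all spots except control spots, off its log2 ratios.

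Background was corrected with normexp (offset 50). On replicate 1 the fit over all spots failed (background means of -273 in Cy3 and -185 in Cy5). Parameters were therefore fitted without spots marked non-uniform or more than 20 units below local background, a choice made with that failure known, and applied to all spots. Loess within arrays followed, with control spots at weight 0. Spots marked as outliers (194 to 230 per array) were dropped and spots of a probe averaged. Testing required a probe well above background in 3 or more mice of one genotype. No spot was saturated, and the share of spots well above background was 52.7% to 55.3% in Cy3 and 54.7% to 56.3% in Cy5.

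The limma 3.58.1 model (R 4.3.3) held a dye intercept and the knockout effect, with n = 4 arrays, two-sided p-values, Benjamini-Hochberg adjustment and a threshold of 0.05. Its standard error leaves out any difference between dye orientations. Alternatives used statmod 1.5.0, file reading data.table version 1.17.8 and figures matplotlib 3.10.9. The fit was checked on simulated data.

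The genes and lists were chosen with earlier results of these data known. Named genes are a fixed set (Cdc5l, Sf3b1, Plrg1, Prpf19, Prpf8, U2af1, U2af2, Srsf1, Srsf3, Hnrnpa1, Snrpn, Ppp1r8), then per family up to 3 probes per direction with the lowest p among those of one sign on all arrays, genes whose probes oppose each other at an unadjusted p under 0.05, and up to 2 probes per direction of each other list. Other genes with values in the text were chosen after their values were seen. Probe positions are those of the files. RefSeq transcripts of GRCm38.p6 matched 108 of 120 probes and renamed 1. Probe sequences are from the deposited files and are cut to the first 30 of 60 bases.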

Additional observations from a re-analysis of the deposited data

Results flagged for a closer look

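In 3 of the 65 named probes one array lay farther from the other 3 than a test for single outliers in groups of 4 allows, a test that by chance marks about 1 in 20 groups. For Snrpa1, the upstream probe gave 0.17 on replicate 4, against 0.58 to 0.67 on the other arrays. For Rnpc3, replicate 1 gave 0.34, against 0.62 to 0.64. For Luc7l2, replicate 1 gave -0.23, against -0.48 to -0.45. In each case the lone array had the same sign as the rest.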

How the results depend on the processing

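No splicing probe passed an adjusted p of 0.05 in limma under the reported settings, where 17 were higher and 17 lower at an unadjusted p under 0.05. The number that passed was 1 on the processed signals (0.893%, against 1.87% of all probes), 2 with no filter on dim probes (1.67%, against 1.28%), 8 with a trended and robust variance (7.14%, against 3.67%) and 28 when the channels were fitted separately (25%, against 17.6%). It was 0 in the other alternatives, including without any one array. No probe of the whole array passed with one array left out, with normexp fitted on every spot or with the brightest probe of a gene. In the remaining alternatives 0.307% to 1.61% of all tested probes passed. At an adjusted p under 0.1 the 11 probes became 6 on the processed signals, 3 with normexp fitted on every spot, 1 without the dye term, 17 with the trended variance, 37 with separate channels, 6 with the brightest probe of a gene, and 0 with any one array left out. Without replicate 3 or 4 no probe on the array could pass 0.1, the lowest limma adjusted p being 0.22 and 0.12. Probes higher at an unadjusted p under 0.05 numbered 9 to 15 with one array left out. Probes lower at that p numbered 8 to 11 with one array left out, 10 on the processed signals, 10 with median centring, 9 without the dye term and 10 with the brightest probe of a gene. The median of the splicing probes was 0.047 on the processed signals and 0.044 with median centring, and -0.019 to 0.003 with one array left out. Leaving out an array removes a sample, and the brightest-probe setting tests fewer probes. For the other changes the cause was not tested. Of the 65 named probes, 59 kept their sign under every alternative run. The other 6 were near 0. The U2af1 probes (-0.042 downstream and -0.023 upstream) became 0.022 each on the processed signals, and 0.012 and 0.017 with median centring. With one array left out they ran from -0.132 to 0.047 and from -0.12 to 0.074. The second Srsf1 probe (0.008) became -0.009 with normexp fitted on every spot, and ran from -0.013 to 0.03 with one array left out. Over the same omissions the second Srsf3 probe (0.057) ran from -0.057 to 0.171, the upstream Plrg1 probe (0.07) from -0.009 to 0.149 and the fifth Hnrnpa3 probe (-0.09) from -0.189 to 0.01. No further pairing was possible, because each ratio already sets 1 knockout against 1 control mouse on a shared array.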
